A study of Homo sapiens with 12 samples.

Results

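Gene expression was compared between MDA-MB-231 cells that carried a guide RNA against UFM1 and cells that carried a control guide. The comparison takes 6 of the 12 libraries of the series: sgUFM1_1 to sgUFM1_3, and sgCtrl_1_to_sgUFL1 to sgCtrl_3_to_sgUFL1, called controls 1 to 3. These 6 were chosen because the deposited count table and the deposited FPKM table (fragments scaled to gene length and library size) name them alike, while the names of the other 6 libraries are exchanged between the tables. MDA-MB-231 is a widely used human cell line from a triple-negative breast cancer. Total RNA was sequenced from cells kept in TRIzol, and the whole series also holds libraries for a guide against UFL1 and a further set of controls. The labels call the edited cells both knockdown and KO, and they name no clone, no time and no treatment other than the guide. By their titles the controls belong to the UFL1 guide, so the guide and how these cultures and libraries were handled cannot be told apart. Whether the 3 libraries of a group stem from separate cultures is not labelled, and the p-values then describe a spread between libraries that may be technical.

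UFM1 is a small ubiquitin-like protein. After activation it is passed to UFC1 and attached to target proteins by UFL1, which works at the endoplasmic reticulum (ER) with DDRGK1 and CDK5RAP3, and UFSP2 removes it again. Its best known target is the ribosomal protein RPL26 on ribosomes docked at the ER translocon, and the pathway is known for its part in ER protein quality control and ER-phagy, the delivery of ER to lysosomes.

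The 6 libraries held 15342793 to 17026646 counts, 4.51% to 4.76% of them on mitochondrial genes in the controls and 3.12% to 3.73% in sgUFM1. Values below are corrected CPM (counts scaled to a common library size) after TMM scaling and removal of each library's trend with the GC content and length of genes. Control 2 stood apart from controls 1 and 3: on the leading principal component, with 54.4% of the variance, it lay at -2.91, against -19.19 and -21.81 for the other controls and 13.85 to 15.14 for sgUFM1. Defining markers of the line were present in all 6 libraries, with VIM at 828 CPM or more, CD44 at 456 or more and EGFR at 389 or more, before correction. The estrogen receptor gene ESR1 reached 0.742 CPM, CDH1 0.305 and EPCAM 8.64. Of 18 leukocyte markers 3 passed the filter on low counts, and edgeR called none of these (1 at an unadjusted p under 0.05, 0 by DESeq2). The 18 summed to 4.39 to 5.86 CPM in the controls and 7.58 to 8.69 in sgUFM1, with 5 at 0. Of 14 markers of fibroblasts and endothelium 5 passed the filter, and the 14 summed to 26.7 to 30.6 and 47.7 to 52.8 CPM, with COL1A2 at 0. Of these 5, PECAM1 and PDGFRB were called higher and KDR lower. The part of such cells in the results was not tested, and in bulk RNA fewer cells of a type and less RNA per cell cannot be told apart.

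The targeted gene itself was lower with its guide. UFM1 (ENSG00000120686, GRCh38 chromosome 13, 38349849 to 38363619) had 57.5, 65.6 and 56.9 corrected CPM in controls 1 to 3 and 44.3, 42.0 and 42.0 in sgUFM1. All 3 sgUFM1 libraries lay below all 3 controls, by a log2 fold change of -0.49 (SE 0.09, adjusted p = 0.0084, edgeR's quasi-likelihood test with Benjamini-Hochberg adjustment over all genes tested, as in every adjusted p below). The other 6 libraries of the series had 51.4 to 67.5 corrected CPM of UFM1, also above every sgUFM1 library. The call was lost without sgUFM1 replicate 2 or 3. Reads are counted from an edited transcript too, so this level does not measure the protein.

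Among 10 genes of the UFMylation machinery UFM1 was the only one called. UFL1, the ligase, had 19.3, 24.3 and 24.7 corrected CPM in the controls and 24.0, 26.6 and 25.0 in sgUFM1, and the groups overlapped (log2 fold change 0.15, SE 0.12, adjusted p = 0.48). UFL1 overlaps an antisense gene, and whether counting used strand is not given in the sources used here. DDRGK1, the membrane adaptor of UFL1, had 47.0, 47.3 and 27.8 against 61.3, 58.2 and 52.2 corrected CPM (log2 fold change 0.49, SE 0.17, adjusted p = 0.092). The groups did not overlap for DDRGK1, and the difference did not pass the test.

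Counts depended on the GC content of genes, and the dependence differed between the groups. Averaged over counts, GC content was 49.24%, 49.38% and 48.33% in controls 1 to 3 and 50.29%, 49.93% and 49.81% in sgUFM1. The other 6 libraries had 50.29% to 50.94%. In genes of more than 65% GC, control 3 lay 0.445 log2 units below the mean of the 6 libraries and sgUFM1 replicate 1 lay 0.342 above it. In genes of 35% to 40% GC the order was turned, with control 3 at 0.301 and sgUFM1 replicate 1 at -0.204. Controls 1 and 2 deviated less, at -0.048 and -0.104 in the GC-richest genes.

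**Figure D1:**
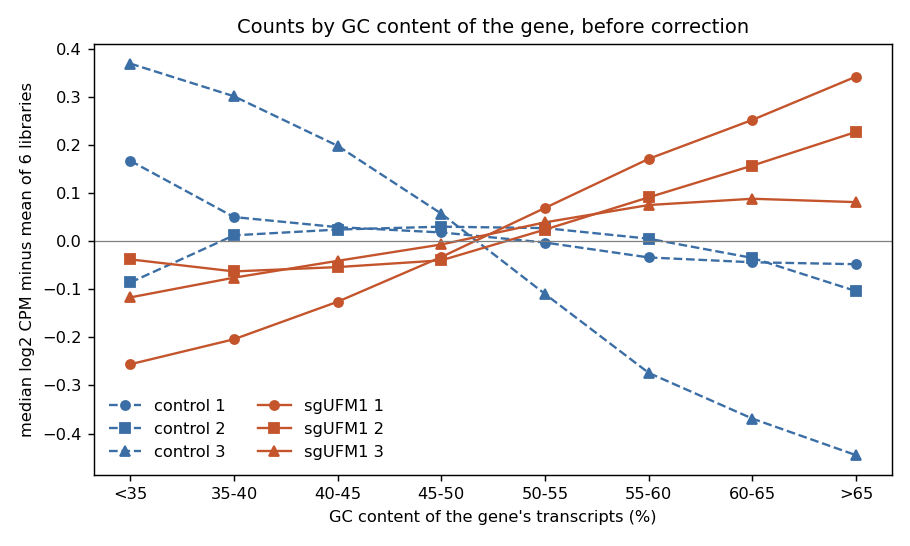
Median log2 CPM of genes in bins of GC content, as the difference from the gene's mean over the 6 libraries, before correction; dashed blue lines are the controls and solid orange lines sgUFM1. Control 3 falls from 0.369 to -0.445 across the bins, and sgUFM1 replicate 1 climbs from -0.256 to 0.342.

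Without a correction for this trend, 837 genes were called higher in sgUFM1 (5.57% of 15035 tested) and 666 lower (4.43%) at an adjusted p of 0.05. With the correction 646 were higher (4.3%) and 595 lower (3.96%), in all 1241 (8.25%). Of the calls, 843 were made in both fits with the same sign, which is 56.1% of the calls without the correction and 67.9% of those with it. The uncorrected log2 fold change ran with GC content across genes (Spearman's rank correlation 0.53, over genes, which are not independent and share the 6 libraries), and with the correction this was 0.02. Genes called higher had a median GC content of 58.7% without the correction and 50.6% with it, and genes called lower 42.6% and 48.1%, against 48.7% for all genes tested. In the bin above 65% GC, 19.7% of genes were called higher and 0.518% lower without the correction, and 4.15% in each direction with it.

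**Figure D2:**
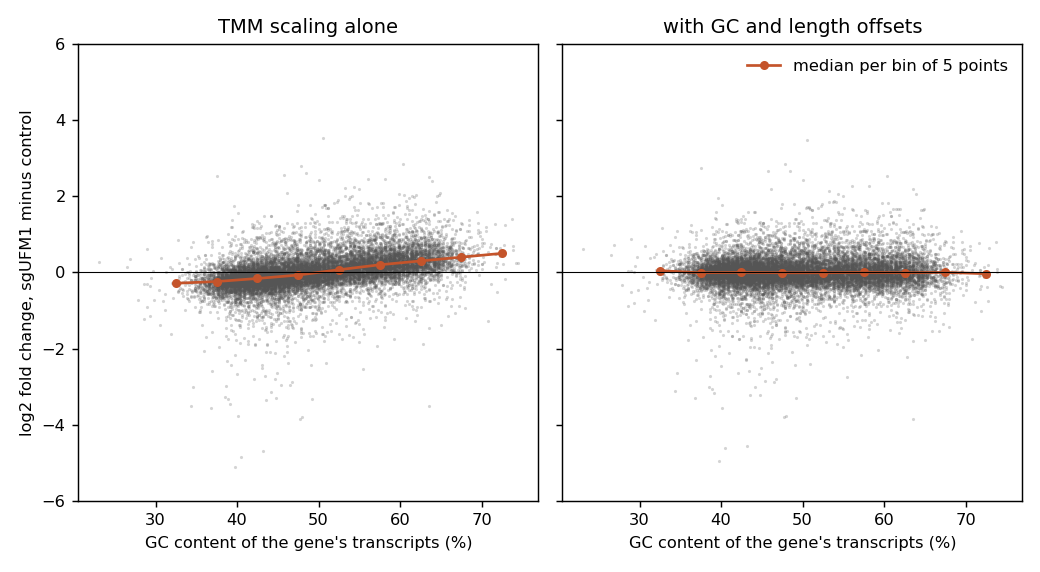
Log2 fold change of sgUFM1 against the controls (vertical axis) by GC content of the gene's transcripts (horizontal axis, %), with TMM scaling alone on the left and with GC and length offsets on the right; each point is a gene and the line joins bin medians. With all genes up to 35% GC and all genes above 65% pooled into end bins, which the plotted line does not do, bin medians run from -0.29 to 0.41 on the left. On the right they then lie between -0.01 and 0.04.

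The correction moved whole groups of GC-rich genes across the threshold. Among the most abundant genes called only without it were PLEC, a cytoskeletal linker with 66.6% GC, and EPHA2, an ephrin receptor with 61.4% GC. PLEC differed by 0.79 without the correction (adjusted p = 0.0095) and by 0.36 with it (adjusted p = 0.072). EPHA2 had 585, 660 and 647 corrected CPM in the controls and 713, 736 and 712 in sgUFM1, and its log2 difference went from 0.47 to 0.19 (adjusted p = 0.16). NAP1L1, a histone chaperone with 38.9% GC, went from -0.52 to -0.30 (adjusted p = 0.084). FAM129B also passed only without the correction, going from 0.62 to 0.32. The most abundant genes called only with it were ACLY (-0.28), STT3B (0.28), PHLDA1 (0.30), ARF4 (0.38) and IL1B (0.57), whose uncorrected log2 differences were -0.20, 0.14, 0.16, 0.25 and 0.51. In all, 386 higher and 274 lower calls were made only without the correction, and 195 higher and 203 lower calls only with it.

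Most changes were small. Of the 646 genes called higher, 369 changed by less than 1.5-fold and 111 by at least 2-fold, and of the 595 lower ones 357 and 120. For 1238 of the 1241 genes the 3 sgUFM1 libraries lay wholly outside the range of the 3 controls. The exceptions were PGM5, MITF and SLCO5A1, picked out after their values were seen. Selection by a small p favours such a separation, so this count is a description and no measure of how robust the calls are. Many calls were lost with 1 library fewer, where fewer samples enter the fit: 178 of the 1241, 102 higher and 76 lower, were also called in each of the 6 fits that left out 1 library. Leaving out an sgUFM1 library lost 994 to 1006 of the calls, leaving out control 1 or 3 lost 683 or 686, and leaving out control 2 lost 3. Control 2 was the control nearest to sgUFM1 in most calls: it was the highest control for 445 of the 646 higher genes and the lowest for 373 of the 595 lower ones. Without control 2, 2185 genes were called higher (14.1% of 15492 tested) and 1960 lower (12.7%).

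The most prominent gain was in a secreted mucin. MUC5AC (chromosome 11, 1157953 to 1201138), a gel-forming mucin of airway and stomach surfaces, had 66.5, 82.6 and 80 corrected CPM in the controls and 462, 479 and 394 in sgUFM1. The groups were far apart, with a log2 fold change of 2.54 (SE 0.11, adjusted p = 2.8e-07), and the call held without any 1 library. The other 6 libraries had 56.2 to 92.4 corrected CPM. MUC5B, the neighbouring gel-forming mucin gene, had 27.9, 8.33 and 30 against 50.9, 53.7 and 45.7 (log2 fold change 1.18, SE 0.32, adjusted p = 0.043). Control 2 was the lowest library for MUC5B, and the call was lost without control 1 or any sgUFM1 library and by DESeq2 (adjusted p = 0.14). Only 4 of 17 mucin genes passed the filter on low counts, and the other 2 of these were not called.

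Genes of the secretory epithelial and luminal list also rose. Of 17 tested 8 were higher and none was lower (47.1%, against 8.25% of all genes tested). Their median log2 fold change was 0.71, against -0.01 over all genes tested. This list and those below were chosen with earlier results of these data known, so their counts are descriptions. EHF, an ETS-family transcription factor of epithelia, had 1.33, 4.6 and 1.11 corrected CPM in the controls and 9.77, 11.4 and 11 in sgUFM1 (log2 fold change 2.19, SE 0.40, adjusted p = 0.0094). SPDEF, an ETS factor that drives goblet cell maturation, had 14.1, 31.2 and 14.2 against 48.3, 48.8 and 43.9 (log2 fold change 1.23, SE 0.24). Control 2 lay between the other controls and sgUFM1 for both factors. The trefoil peptides TFF1, TFF2 and TFF3, which are secreted with mucins, rose by 2.26, 1.86 and 1.60 on the log2 scale, from at most 0.702, 2.76 and 7.34 corrected CPM in any control, and TFF3 missed the threshold by DESeq2 (adjusted p = 0.059). AGR2, the ER disulfide isomerase needed for mucin folding, had 3.69, 5.07 and 5.56 against 10.7, 9.95 and 10, a log2 fold change of 1.10 (SE 0.19, adjusted p = 0.0073). FCGBP, a mucus protein, rose by 1.09, and XBP1, which is described with the ER genes, by 0.49. Of the 8 calls, those of AGR2 and FCGBP held in all 6 fits of 5 libraries, while leaving out an sgUFM1 library lost 4 to 6. The estrogen receptor gene ESR1 of the same list did not pass the filter on low counts.

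Further large gains were in cell surface receptors and signalling genes. BDKRB2, the bradykinin B2 receptor, had 8.67, 12.1 and 8.49 corrected CPM in the controls and 41.5, 43.6 and 43.0 in sgUFM1 (log2 fold change 2.13, SE 0.14, adjusted p = 1.3e-05). PECAM1, an adhesion molecule known from endothelium and platelets, had 5.73, 10.9 and 6.78 against 25.5, 26.0 and 29.7 (log2 fold change 1.79, SE 0.20). SHH, a hedgehog ligand, had 19.0, 38.6 and 19.2 against 78.6, 83.5 and 78.8 (log2 fold change 1.64, SE 0.22). In each of these the groups did not overlap and the call held without any 1 library. CMKLR1, the chemerin receptor, rose by 1.67, the adhesion G protein-coupled receptor ADGRD1 by 1.87, the GTPase activator ARHGAP30 by 1.63, the sterol transporter ABCG1 by 1.53 and the retinaldehyde reductase DHRS3 by 1.52. ADGRD1 shares its region with genes on the opposite strand, so some of its reads are uncertain.

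Among abundant genes, those of at least 50 CPM in 1 group, the smallest p-values for a gain included S1PR3, a receptor of sphingosine 1-phosphate. It had 45.2, 56.3 and 45.9 corrected CPM in the controls and 99.2, 108 and 96.9 in sgUFM1 (log2 fold change 1.04, SE 0.10, adjusted p = 0.00027). LTBP1, which holds latent TGF-beta in the matrix, had 91.8, 85.8 and 108 against 190, 193 and 190 (log2 fold change 1.00, SE 0.09). The transcription repressor BHLHE40, with 26.7, 31.9 and 25.5 against 54.7, 60.7 and 54.1, rose by 1.01 (SE 0.10). The stress-activated kinase MAPK13 rose by 1.10, the mTOR inhibitor DDIT4 by 0.86, the small GTPase RHOB by 0.80, the semaphorin SEMA6B by 0.75 and the endocytic receptor LRP10 by 0.74. All of these held in each fit of 5 libraries.

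Large losses included ESM1 and the interstitial collagenase MMP1. ESM1 (chromosome 5, 54977864 to 55022671), a secreted proteoglycan first known from endothelium, had 42.0, 22.4 and 44.8 corrected CPM in the controls and 1.40, 1.43 and 1.81 in sgUFM1. Its log2 fold change was -4.55 (SE 0.29, adjusted p = 1.3e-05), and the other 6 libraries had 20.5 to 40.3. MMP1 (chromosome 11, 102789920 to 102798160) was among the most abundant transcripts, with 6810, 6140 and 6800 against 1060, 1080 and 1110 (log2 fold change -2.60, SE 0.09, adjusted p = 7.2e-08). The other 6 libraries had 1700 to 6690 corrected CPM of MMP1, above every sgUFM1 library.

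EPB41L3 (chromosome 18, 5392381 to 5630700), a linker of membrane proteins to spectrin and actin, had 71.9, 86.5 and 68.4 corrected CPM in the controls and 5.69, 5.46 and 5.53 in sgUFM1 (log2 fold change -3.76). The chemokine receptor CXCR4 had 21, 9.77 and 19.4 against 3.19, 4.17 and 4.13 (log2 fold change -2.12, SE 0.27, adjusted p = 0.0016). Every sgUFM1 library lay below every control for both genes. The chemokine CCL2, an attractant of monocytes, had 182, 180 and 143 against 50.7, 53.5 and 55.9 (log2 fold change -1.66, SE 0.10). KISS1, the kisspeptin precursor and a known metastasis suppressor, fell by 1.53 on the log2 scale, and NRIP1, a corepressor of nuclear receptors, by 1.51. Serine protease TMPRSS15 fell by 3.06, the nucleosome assembly gene NAP1L3 by 2.64, the adaptor SAMSN1 by 2.29 and ENPP2, which makes lysophosphatidic acid, by 2.27. Among abundant genes ANXA3, NEDD4L and PLAC8 fell by 0.84, 0.75 and 0.71. These calls held in each fit of 5 libraries.

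A few of the largest losses had a control on the side of sgUFM1. PGM5 had 18, 1.04 and 18.1 corrected CPM in the controls and 0.754, 1.06 and 0.840 in sgUFM1, so that control 2 lay within the sgUFM1 range (log2 fold change -3.80, SE 0.80). SUSD2, a membrane protein, had 16.1, 1.53 and 13.7 against 0.564, 0.579 and 1.02 (log2 fold change -3.85, SE 0.71), and the call was lost in 3 of the 6 fits of 5 libraries.

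**Figure D3:**
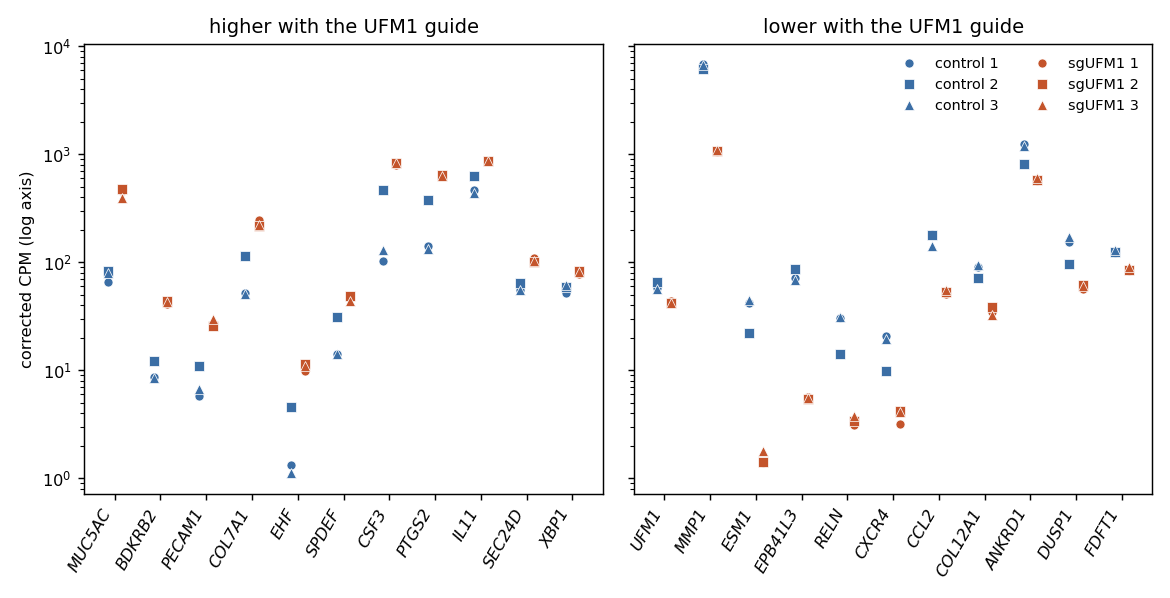
Corrected CPM on a log axis of 22 genes in each of the 6 libraries, blue for controls and orange for sgUFM1, with the replicate number by symbol shape. The groups do not overlap in any of them, and the blue squares, control 2, lie nearest to sgUFM1 for CSF3, PTGS2, EHF, SPDEF, ESM1 and CXCR4.

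In the ER stress list, made of targets of the XBP1 and ATF6 branches, 13 of 45 genes rose and none fell, with a median log2 fold change of 0.22. The share was 28.9%, against 4.3% higher and 3.96% lower over all genes tested, and 40 of the 45 had a positive difference. SEC24D, a cargo-binding subunit of the COPII coat of ER export vesicles, had 55.2, 65 and 55.3 corrected CPM in the controls and 110, 101 and 102 in sgUFM1 (log2 fold change 0.84, SE 0.09, adjusted p = 0.00043). XBP1, the transcription factor activated by IRE1 splicing, had 52.3, 58.8 and 61.5 against 78.4, 82.8 and 80.7 (log2 fold change 0.49, SE 0.08, adjusted p = 0.0066). SELENOS, a partner of the ER-associated degradation complex, rose by 0.60, the co-chaperones DNAJC3 and DNAJB11 by 0.47 and 0.43, and the disulfide isomerases PDIA4 and PDIA6 by 0.41 and 0.31. The mannosidase-like EDEM1 and the secreted factor MANF rose by 0.35 and 0.31. SELENOK rose by 0.42, but differed by -0.04 with sgCtrl_to_sgUFM1 of the count table as controls. SEC61B and SSR1 belong to the next list too. SEC24D was the only one called in each fit of 5 libraries, and leaving out 1 sgUFM1 library lost 9 to 12 of the 13 calls.

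The isomerase TXNDC5 of that list rose by 1.13 against these controls, with 11.3, 12.9 and 6.78 corrected CPM in them and 22.1, 25.8 and 20.2 in sgUFM1. It is a case where the controls stand apart, since the other 6 libraries had 22.3 to 30.3 corrected CPM of TXNDC5.

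The main chaperones of the ER lumen did not pass the test. HSPA5 (BiP) had 866, 794 and 1010 corrected CPM in the controls and 961, 929 and 950 in sgUFM1 (log2 fold change 0.09, SE 0.10, adjusted p = 0.60). HSP90B1 differed by 0.17 (adjusted p = 0.22), CALR by 0.05, CANX by 0.22 and CRELD2 by -0.09. Groups overlapped for HSPA5, CALR, CANX and CRELD2, and not for HSP90B1.

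A known promoter element of such genes was looked for. The ER stress response element, CCAAT and CCACG with 9 bases between them, was searched on both strands in RefSeq promoters (GRCh38.p14) from 250 bases before to 50 after the start of each gene. It was in 7 of the 41 list members with a promoter sequence (17.1%) and in 22 of all 27305 promoters (0.0806%). Of the 10478 tested genes with a promoter sequence 14 held it (0.134%). Among the promoters with a sequence it was in 2 of 494 genes called higher (0.405%) and in 0 of 439 called lower. Of the 7 list members only XBP1 was called, and HSPA5, HSP90B1, CALR, CANX, CRELD2 and ERO1B were not. Pieces of 60 bases around the match are shown for XBP1 and for the 3 uncalled chaperones HSPA5, HSP90B1 and CANX, with the matched letters in capitals, from the windows chr22:28800520-28800819 (minus strand), chr9:125241294-125241593 (minus strand), chr12:103930160-103930459 (plus strand) and chr5:179698679-179698978 (plus strand).
XBP1: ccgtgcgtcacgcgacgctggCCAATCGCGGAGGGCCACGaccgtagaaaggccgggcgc
HSPA5: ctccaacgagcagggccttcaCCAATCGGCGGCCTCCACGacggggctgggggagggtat
HSP90B1: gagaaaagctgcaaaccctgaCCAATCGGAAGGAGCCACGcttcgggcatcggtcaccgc
CANX: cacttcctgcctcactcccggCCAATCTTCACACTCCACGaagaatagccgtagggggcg
A match is a description of the letters and not of a bound factor.

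Genes of the translocon, signal recognition and N-glycosylation machinery, through which new proteins enter the ER, also moved upwards. Of 37 genes 12 rose and none fell (32.4%, against 8.25% of all genes tested), with a median log2 fold change of 0.14. SEC61A1, the channel subunit, had 367, 429 and 383 corrected CPM in the controls and 512, 517 and 526 in sgUFM1 (log2 fold change 0.40, SE 0.08, adjusted p = 0.014). The channel subunit SEC61B, with 46.6, 51.0 and 38.6 against 66.4, 62.8 and 65.7, rose by 0.52, and the signal recognition particle receptor SRPRA by 0.38. The translocon partners SEC62 and SEC63 rose by 0.34 and 0.26, the translocon-associated protein SSR1 by 0.39, the signal peptidase subunits SPCS1, SEC11A and SPCS3 by 0.43, 0.35 and 0.33, and the oligosaccharyltransferase genes OST4, RPN1 and STT3B by 0.61, 0.30 and 0.28. With sgCtrl_to_sgUFM1 of the count table as controls OST4 differed by -0.01. None of the 12 was called in every fit of 5 libraries, and each was lost without any 1 sgUFM1 library. Without the GC correction 4 of these genes were higher and 1 lower. Of the 12 genes 5 lie on chromosome 3 (SEC61A1, SEC62, SPCS1, STT3B and RPN1), and off chromosomes 3 and 18 the count was 7 of 29. On chromosome 3, 18.3% of genes tested were higher from 0 to 90 Mb, as described below, and 5.72% from 90 to 200 Mb. From 140 to 180 Mb, a stretch drawn after the values were seen, 9.76% were higher. SPCS1 and STT3B lie in the part from 0 to 90 Mb, and SEC61A1, SEC62 and RPN1 in that from 90 to 200 Mb. The part of chromosomal position in the list's count was not tested.

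Fewer genes moved in the neighbouring ER lists. In the list of COPII coat and ER export genes 4 of 31 rose and none fell (12.9%, against 8.25% of all genes tested). They were SEC24D, SEC24A, with 69.9, 70.1 and 71.0 against 90, 101 and 95.7 corrected CPM (log2 fold change 0.44, SE 0.07), the cargo receptor TMED9 (0.43) and SEC13 (0.35). Of 10 ER-phagy receptor genes TEX264 and SEC62 rose, by 0.44 and 0.34, and both lie on chromosome 3. Their share of this short list was above the 8.25% of all genes tested. Both calls were lost without control 1, control 3 or any 1 sgUFM1 library. In the list of ATF4 and integrated stress response genes 3 of 33 rose and none fell (9.09%, near the 8.25% of all genes tested). They were DDIT4, the kinase EIF2AK3 (0.50) and CEBPB (0.40), and the list median was 0.01. ATF4 itself had 250, 227 and 243 against 230, 244 and 259 corrected CPM, and DDIT3 (CHOP) differed by -0.45 (SE 0.22, adjusted p = 0.21).

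Ribosomal protein genes gave 1 call among 79 (1.27%, against 8.25% of all genes tested), and it was RPL26, the best known UFM1 target. RPL26 had 34.6, 33.8 and 21.9 corrected CPM in the controls and 61.8, 49.2 and 41.3 in sgUFM1 (log2 fold change 0.75, SE 0.18, adjusted p = 0.027). The groups did not overlap, but the other 6 libraries had 59.6 to 79.6 corrected CPM, so that it is these controls that were low. Against the other 2 sets of libraries RPL26 differed by -0.30 and -0.63. The call was lost without control 3 or any sgUFM1 library, and many processed copies of ribosomal protein genes can share reads with them.

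Inflammatory genes changed in both directions. Of 36 genes of the NF-kB and cytokine list 13 rose and 4 fell (47.2%, against 8.25% of all genes tested). The median log2 fold change was 0.37. CSF3, the granulocyte colony-stimulating factor, had 103, 464 and 129 corrected CPM in the controls and 793, 840 and 830 in sgUFM1 (log2 fold change 1.82, SE 0.43, adjusted p = 0.027). CSF2, its granulocyte-macrophage relative, had 21.3, 38.8 and 18.5 against 58.4, 55.9 and 49.9 (log2 fold change 1.06, SE 0.22). Control 2 was the highest control for both, and the call of CSF3 was lost without any 1 library except control 2 and by DESeq2 (adjusted p = 0.078). IL11, a cytokine of the IL-6 family, had 471, 631 and 436 against 871, 863 and 869 (log2 fold change 0.76, SE 0.12, adjusted p = 0.0054) and was called in each fit of 5 libraries. The neutrophil chemokines CXCL3 and CXCL2 rose by 0.80 and 0.63, IL1B by 0.57, LIF by 0.54 and the leukocyte adhesion ligand ICAM1 by 0.53. CXCL8, with 242, 400 and 231 against 426, 402 and 434, differed by 0.53 (adjusted p = 0.077), and IL6 by 0.39 (adjusted p = 0.30).

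The 4 that fell were CCL2 and 3 genes that restrain or feed back on NF-kB signalling: BIRC3 (157, 135 and 157 against 106, 117 and 114 corrected CPM, log2 fold change -0.42), NFKBIE (-0.37) and TNFAIP3 (-0.33). Of the 17 calls in the list, those of CCL2 and IL11 held in all 6 fits of 5 libraries, and leaving out an sgUFM1 library lost 14 or 15. Against 1 of the other 2 sets of libraries BIRC3 differed by 0.05.

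Prostaglandin and bradykinin genes overlap with this theme in function. PTGS2, the inducible cyclooxygenase, had 141, 375 and 132 corrected CPM in the controls and 643, 651 and 635 in sgUFM1 (log2 fold change 1.58, SE 0.31, adjusted p = 0.013). PTGES, which makes prostaglandin E from its product, had 264, 292 and 260 against 369, 395 and 391 (log2 fold change 0.50, SE 0.08, adjusted p = 0.0047). With BDKRB2 and BDKRB1, the bradykinin receptors, 4 of 12 tested members rose (33.3%, against 8.25% of all genes tested) and none fell. The median of the list was -0.07. BDKRB1 reached 2.29 corrected CPM in sgUFM1 and 1.06 in the controls. The call of PTGS2 was lost without control 1 or any sgUFM1 library, and those of BDKRB2 and PTGES were not lost.

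In the list of type I interferon-stimulated genes 6 of 50 rose and none fell, with a median of 0.12. The share called was only modestly above the 8.25% of all genes tested. ISG20, an exonuclease, had 7.73, 7.92 and 7.53 corrected CPM in the controls and 15.7, 13.9 and 14.0 in sgUFM1 (log2 fold change 0.91, SE 0.14, adjusted p = 0.0039). GBP2, a guanylate-binding protein, had 22.7, 22.2 and 21.9 against 41.8, 32.4 and 37.5 (log2 fold change 0.74, SE 0.11). Both calls held in every fit of 5 libraries. OASL rose by 0.89, with control 2 at 30.4 and the other controls at 14.0 and 13.9, and missed the threshold by DESeq2 (adjusted p = 0.11). OAS2 rose by 0.45, and IFITM1 by 0.65, but IFITM1 differed by -0.07 against the libraries that the count table names sgCtrl_to_sgUFM1. CXCL10 was called from low counts, with at most 0.416 corrected CPM in the controls and 0.723 to 1.32 in sgUFM1. The core of the interferon-stimulated response element, TTTC and TTTC with 2 bases between them, was searched on both strands in the same windows. It was in the promoters of 27 of 39 list members (69.2%), in 3.65% of all promoters and in 2.87% of those of genes tested. Among genes called higher and lower it was in 3.44% and 1.14%. ISG20 (chr15:88638766-88639065, plus strand) and IFITM1 (chr11:313790-314089, plus strand) are shown as called members that hold it, on the opposite strand.
ISG20: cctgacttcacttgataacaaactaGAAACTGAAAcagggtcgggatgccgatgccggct
IFITM1: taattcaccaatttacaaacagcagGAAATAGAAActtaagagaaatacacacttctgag

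Genes of MHC class I presentation depended on the correction. Without it 5 of 18 were called higher, among them HLA-B and HLA-C with log2 differences of 0.48 and 0.46. With it 1 was called higher (5.56%, against 8.25% of all genes tested called in either direction). HLA-B had 110, 131 and 121 corrected CPM in the controls and 142, 133 and 148 in sgUFM1 (log2 fold change 0.23, adjusted p = 0.11), and HLA-C differed by 0.16. The gene called with the correction was ERAP1, the peptidase that trims peptides in the ER, with 67.1, 77.2 and 62.5 against 104, 103 and 102 (log2 fold change 0.58, SE 0.09, adjusted p = 0.0038). It held in each fit of 5 libraries. Both HLA genes have a GC content above 60% and belong to a family of similar sequence.

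**Figure D4:**
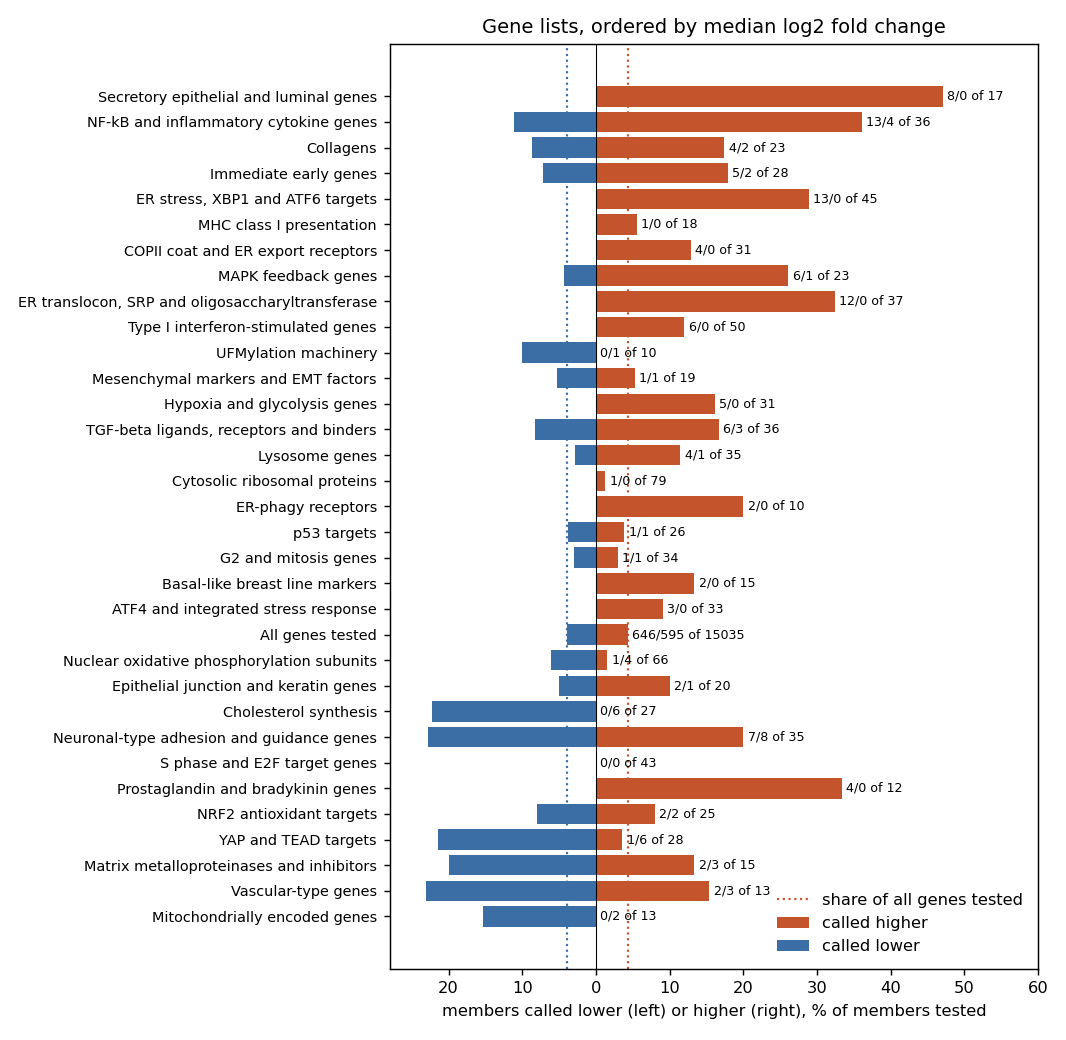
Share of the tested members of each gene list called higher (right, orange) or lower (left, blue) with the GC correction, in % of members tested, for lists of at least 10 tested members; dotted lines give the share over all genes tested and the numbers are higher/lower of tested. The secretory, inflammatory, ER stress and translocon lists stand to the right and the cholesterol and YAP lists to the left. Lists were chosen with earlier results of these data known.

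Matrix genes split by member. Of 23 collagen genes 4 rose and 2 fell with the correction (26.1%, against 8.25% of all genes tested). Without it 10 rose and 2 fell. COL7A1, the anchoring fibril collagen, had 52.5, 115 and 50.7 corrected CPM in the controls and 246, 219 and 221 in sgUFM1 (log2 fold change 1.65, SE 0.25, adjusted p = 0.0041). COL12A1, a fibril-associated collagen, had 90.2, 72.1 and 94.3 against 34.7, 38.7 and 32.6 (log2 fold change -1.27, SE 0.11), and COL8A1, a network collagen, had 147, 140 and 141 against 77.2, 74.3 and 73.5 (log2 fold change -0.93, SE 0.07, adjusted p = 4.3e-05). These 3 held in every fit of 5 libraries. COL6A3, COL6A1 and COL5A1 rose by 1.75, 0.66 and 0.40, and each of their calls was lost without control 1, control 3 or any sgUFM1 library. COL6A1 also missed the threshold by DESeq2 (adjusted p = 0.14).

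Of 15 matrix metalloproteinase and inhibitor genes 3 fell and 2 rose (33.3%, against 8.25% of all genes tested). MMP3 (stromelysin 1) had 14.6, 75.7 and 16.2 corrected CPM in the controls and 6.64, 6.47 and 5.42 in sgUFM1 (log2 fold change -2.52, SE 0.55), with control 2 the highest library. MMP14, the membrane-bound collagenase that activates other members, had 285, 546 and 264 against 740, 740 and 736 (log2 fold change 1.02, SE 0.22, adjusted p = 0.017). MMP15 fell by 0.71 and the inhibitor TIMP3 rose by 0.38, against -0.12 with sgCtrl_to_sgUFM1 of the count table as controls. The call of MMP1 alone held without any 1 library. The 23 listed genes summed to 7680 to 8290 CPM in the controls and 2720 to 2840 in sgUFM1, before correction.

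Vascular-type genes gave 3 calls downwards and 2 upwards among 13 (38.5%, against 8.25% of all genes tested). ENG, a TGF-beta co-receptor of endothelium, had 14.1, 8.33 and 14.4 corrected CPM in the controls and 4.03, 4.08 and 4.08 in sgUFM1 (log2 fold change -1.59, SE 0.22, adjusted p = 0.0030). KDR fell by 1.16 and ESM1 by 4.55, while PECAM1 rose. The endothelial cadherin CDH5 and the receptor TEK did not pass the filter on low counts in these cells.

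Genes known from neuronal adhesion and axon guidance moved in both directions, 7 higher and 8 lower of 35 (42.9%, against 8.25% of all genes). RELN, a large secreted matrix glycoprotein, had 30.3, 14.2 and 31.3 corrected CPM in the controls and 3.09, 3.40 and 3.82 in sgUFM1 (log2 fold change -2.88, SE 0.28, adjusted p = 0.00042). CNTN1, a GPI-anchored adhesion molecule, had 5.80, 3.53 and 6.05 against 0.557, 0.539 and 0.201 (log2 fold change -3.55, SE 0.39), and the adhesion molecule NCAM2 10.1, 6.01 and 9.34 against 2.41, 2.15 and 2.90. All 3 were lower in every sgUFM1 library than in any control and were called in each fit of 5 libraries.

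Semaphorins, which are guidance ligands, went both ways. SEMA3E had 10.7, 6.06 and 8 against 1.90, 1.88 and 1.62 corrected CPM (log2 fold change -2.19, SE 0.26), and SEMA3D and SEMA5A fell by 1.70 and 0.90. SEMA3A, with 53.3, 79.8 and 62.3 against 99.7, 98.9 and 95.3, rose by 0.59, SEMA3C by 0.43 and SEMA4B by 0.38. Of their receptors, NRP1 had 165, 206 and 173 against 266, 268 and 276 (log2 fold change 0.58, SE 0.09, adjusted p = 0.0045), and PLXNA2 and PLXNA1 rose by 0.49 and 0.44. SEMA3E and NRP1 held without any 1 library. The overall list median was -0.04.

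Growth factor signalling genes were called in both directions. Of 23 MAPK feedback genes 6 rose and 1 fell (30.4%, against 8.25% of all genes), and 13 of the 23 had a positive difference. SPRY4 and SPRY1, inhibitors of receptor tyrosine kinase signalling, had 133, 175 and 145 against 253, 250 and 254 corrected CPM (log2 fold change 0.74, SE 0.10) and 30.1, 29.3 and 29.8 against 50.7, 47.1 and 49.2 (0.72, SE 0.08). DUSP1, a phosphatase that inactivates MAP kinases, had 155, 95.8 and 172 against 56.5, 62.4 and 60.3 (log2 fold change -1.24, SE 0.17, adjusted p = 0.0026). Of 28 immediate early genes 5 rose and 2 fell (25.0%), DUSP1 among the latter. EGR1 had 33.7, 42.5 and 27.7 against 70.2, 78.0 and 73.1 (log2 fold change 1.09, SE 0.13, adjusted p = 0.0012), and JUNB, FOSL2 and KLF4 rose by 0.37, 0.37 and 0.39. The calls of SPRY1, SPRY4, DUSP1 and EGR1 held in each fit of 5 libraries.

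In the TGF-beta list 6 of 36 rose and 3 fell (25.0%, against 8.25% of all genes tested). The type I and type II receptors TGFBR1 and TGFBR2 had 82.2, 105 and 90 against 142, 149 and 144 corrected CPM (log2 fold change 0.65, SE 0.09) and 329, 424 and 375 against 557, 565 and 567 (0.58, SE 0.09). The ligand TGFB1 rose by 0.42 and the ligand TGFB2 fell by 0.54, the latent binders LTBP1 and LTBP3 rose by 1.00 and 0.65, and the activin antagonists FST and FSTL3 fell by 0.49 and 0.34. Both receptors and LTBP1 were called in every fit of 5 libraries. FSTL3, a GC-dependent case, differed by 0.02 without the correction.

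The list of YAP and TEAD genes holds factors of the Hippo pathway and their targets, and its calls were mostly lower. Of 28 genes 6 fell and WWTR1 rose by 0.44 (25.0%, against 8.25% of all genes tested), and the median was -0.10. WWTR1 encodes TAZ, a relative of YAP, and TEAD4, which fell by 0.39, is a TEAD factor, so these are not counted as targets. ANKRD1 had 1240, 818 and 1190 corrected CPM in the controls and 570, 584 and 609 in sgUFM1 (log2 fold change -0.88, SE 0.14, adjusted p = 0.0043). F3, tissue factor, had 246, 203 and 240 against 146, 144 and 142 (log2 fold change -0.67, SE 0.08, adjusted p = 0.0015). ARHGEF17, a guanine nucleotide exchange factor, fell by 0.63. The classical targets CTGF and CYR61 were not called, with log2 differences of 0.14 (adjusted p = 0.33) and -0.15 (adjusted p = 0.44).

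Cholesterol synthesis genes were called lower with the correction, 6 of 27 (22.2%, against 8.25% of all genes tested) and none higher. Without it 4 were higher and 4 lower. FDFT1 (squalene synthase), the first committed step, had 121, 124 and 131 corrected CPM in the controls and 82.6, 85.6 and 90.4 in sgUFM1 (log2 fold change -0.54, SE 0.07, adjusted p = 0.0021) and was lower in both fits. ACAT2 fell by 0.41, SC5D by 0.40, DHCR7 by 0.41 and LSS by 0.28. Their uncorrected differences were -0.46, -0.66, -0.22 and -0.05. The list median was -0.03, and only FDFT1 held without any 1 library.

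Of 31 hypoxia and glycolysis genes 5 rose and none fell (16.1%, against 8.25% of all genes tested). CA9, a carbonic anhydrase induced by HIF, had 5.72, 6.24 and 6.45 against 10.9, 10.9 and 12.5 corrected CPM (log2 fold change 0.90, SE 0.15, adjusted p = 0.0069). PFKFB4, P4HA2 and CA12 rose by 0.66, 0.56 and 0.43, and CA12 differed by -0.32 with sgCtrl_to_sgUFM1 of the count table as controls. P4HA2, a collagen prolyl hydroxylase, was the one kept in each fit of 5 libraries.

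Transcripts of the mitochondrial genome were lower in median, at -0.26 over 13 genes, and none of the 13 had a positive difference. MT-CO1 had 12300, 11600 and 13500 corrected CPM in the controls and 7720, 8900 and 9300 in sgUFM1 (log2 fold change -0.53, SE 0.11, adjusted p = 0.015), and MT-ND4L differed by -0.44. Only these 2 were called (15.4% of the 13), and each was lost without any 1 sgUFM1 library. The other 6 libraries had 992 to 1160 corrected CPM of MT-ND4L, below every control, and 8990 to 10500 of MT-CO1, again below every control. Among 66 nuclear genes of oxidative phosphorylation 4 fell and 1 rose, in all 7.58%, against 8.25% of all genes tested. CYC1, COX6C, NDUFV1 and NDUFS8 fell by 0.31, 0.43, 0.38 and 0.34, and NDUFB9 rose by 0.43. With sgCtrl_to_sgUFM1 of the count table as controls NDUFB9 differed by -0.16, and MT-ND4L by 0.12.

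Lysosomal genes rose in 4 of 35 cases and fell in 1, in all 14.3%, against 8.25% of all genes tested. The proteases CTSD and CTSL had 64.3, 71.0 and 47.3 against 97.8, 105 and 97.0 corrected CPM (log2 fold change 0.71, SE 0.12) and 67.5, 69.3 and 60.2 against 95.1, 89.9 and 91.4 (0.49, SE 0.08). SMPD1 and GLB1 rose by 0.43 and 0.39, and the cholesterol exporter NPC1 fell by 0.26. In the NRF2 list 2 of 25 rose and 2 fell (16.0%). AKR1C3 and ABCC3 rose by 0.86 and 0.56, and TXNRD1 was among those that fell, by 0.30.

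Few proliferation genes were called. Of 43 S phase genes 0 were called by edgeR's quasi-likelihood test, 9 had an unadjusted p under 0.05 and 0 were called by DESeq2, and the list median was -0.06. Of 34 G2 and mitosis genes the kinesin KIF11 rose by 0.31 and CDC20, an activator of the anaphase-promoting complex, fell by 0.42. These are 5.88%, and of 26 p53 targets 7.69% were called, against 8.25% of all genes tested. Of the p53 targets CDKN1A (p21) had 85.5, 106 and 81.8 against 133, 132 and 144 corrected CPM (log2 fold change 0.58, SE 0.10, adjusted p = 0.0067), and GADD45A fell by 0.72. The call of CDKN1A was lost without sgUFM1 replicate 3.

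Epithelial and mesenchymal markers gave few calls. Of 20 epithelial junction and keratin genes the tight junction genes OCLN and CLDN7 rose by 0.69 and 0.60 and the desmosomal cadherin DSG2 fell by 0.28. CLDN7 differed by -0.13 with sgCtrl_to_sgUFM1 of the count table as controls. Of 19 mesenchymal markers 10.5% were called. The cadherin CDH11, with 131, 188 and 149 against 259, 267 and 254 corrected CPM, rose by 0.74 (SE 0.11, adjusted p = 0.0044), and TGFBI fell by 0.55. Of OCLN, CLDN7, DSG2, CDH11 and TGFBI only CDH11 held without any 1 library. Of 15 markers of basal-like lines 2 rose (13.3%), S100A6 by 0.57 among them, and none fell.

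Among 1088 genes that the deposited table assigns to a transcription factor family, 42 were higher and 24 lower, in all 6.07%, against 8.25% of all genes tested. Apart from EHF, SPDEF, EGR1 and BHLHE40, these were chosen after their values were seen: GLIS3 rose by 0.98, BHLHE41 by 0.91, ZMIZ1 by 0.76 and SOX4 by 0.55, and L3MBTL4 fell by 2.86 and NR2F2 by 0.52.

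Of 12607 protein-coding genes 607 were higher and 556 lower. Long noncoding RNAs gave 17 calls in each direction among 579 genes of the lincRNA class, and 10 higher and 8 lower among 633 of the antisense class. These are 5.87% and 2.84%, against 8.25% of all genes tested. UCA1, a noncoding RNA known from bladder cancer, had 61.4, 28.1 and 51.1 corrected CPM in the controls and 5.08, 3.65 and 5.43 in sgUFM1 (log2 fold change -3.31, SE 0.27, adjusted p = 0.00013). LINC02246, LINC01929 and LINC02407 fell by 4.62, 2.72 and 2.08. CCDC144NL-AS1 had 8.52, 5.73 and 9.53 against 2.17, 0.990 and 2.82 (log2 fold change -1.99), and it overlaps genes on the other strand. Against the libraries that the count table names sgCtrl_to_sgUFM1, CCDC144NL-AS1 differed by 2.79, in the opposite direction. LINC00996, ZMIZ1-AS1, AL365181.3, IQCH-AS1 and AC021218.1 rose by 1.65, 1.29, 1.22, 1.06 and 1.04. Apart from LINC00996 and IQCH-AS1, the calls named here held in each fit of 5 libraries.

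The calls were not spread evenly over the genome. For each library the median corrected level of expressed genes was taken along chromosomes, relative to each gene's mean over all 12 libraries. On the segment from 0 to 90 Mb of chromosome 3, the medians were -0.10, -0.02 and -0.07 log2 units in controls 1 to 3, 0.16, 0.15 and 0.17 in sgUFM1 and -0.11 to -0.01 in the other 6 libraries. All 3 sgUFM1 libraries lay above the 9 others there. In this segment 77 of 421 genes were called higher (18.3%) and 3 lower, against 4.3% and 3.96% over all genes, and 345 of the 421 had a positive difference. It held 11.9% of all higher calls and 2.8% of the genes tested. COL7A1, BHLHE40, WNT5A, CDCP1, TGFBR2 and the ER genes SELENOK, MANF, EDEM1 and SPCS1 lie in it. The ligand WNT5A had 33.6, 48.8 and 32.6 corrected CPM in the controls and 69.5, 74.4 and 76.2 in sgUFM1 (log2 fold change 0.94), and the membrane glycoprotein CDCP1 487, 632 and 514 against 867, 912 and 912 (0.72).

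Chromosome 18 showed the opposite. Its medians were 0.04, 0.03 and 0.08 in the controls, -0.16, -0.16 and -0.15 in sgUFM1 and 0.03 to 0.07 in the other 6 libraries, and the 3 sgUFM1 libraries lay below the 9 others. Of 226 genes tested 38 were lower (16.8%) and 2 higher, and the chromosome held 6.39% of all lower calls and 1.5% of the genes tested. EPB41L3, L3MBTL4, LINC01929, LAMA1, NEDD4L, ATP8B1, DSG2 and NPC1 are on it. The median log2 fold change of all its genes was -0.21, against -3.76 for EPB41L3. LAMA1, a laminin chain, had 19.8, 11 and 20.1 against 6, 5.49 and 5.92 corrected CPM (log2 fold change -1.55).

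**Figure D5:**
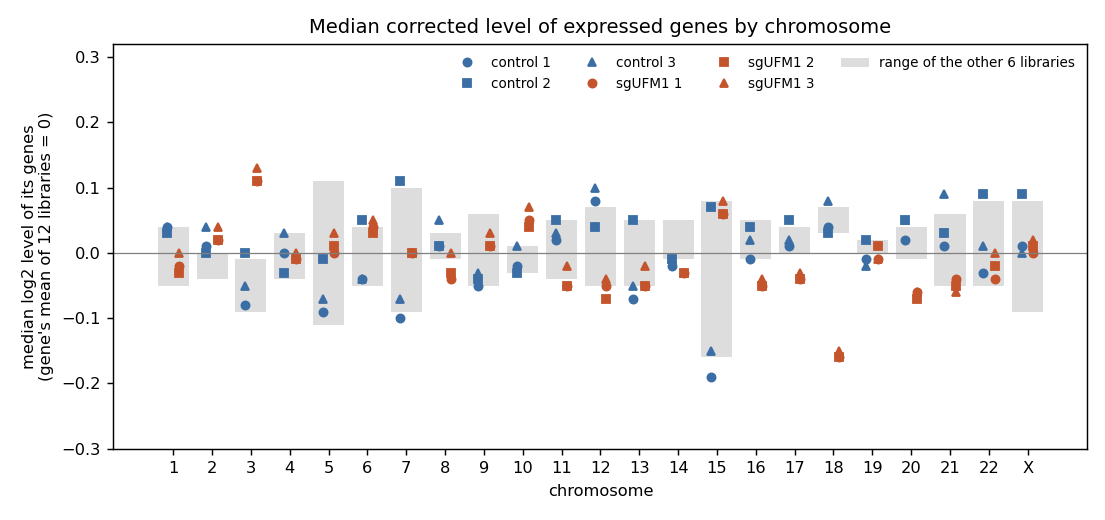
Median log2 level of expressed genes on each chromosome, relative to the gene's mean over 12 libraries, for each control (blue) and sgUFM1 library (orange); grey bars span the other 6 libraries. The sgUFM1 libraries stand above all others on chromosome 3 and below all others on chromosome 18. With smaller differences they also lie outside all others on chromosomes 10, 14, 16, 17 and 20. Controls 1 and 3 stand low on chromosome 15, where the other 6 libraries reach down to -0.16.

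Further stretches held many calls of 1 direction, against 4.3% higher and 3.96% lower over all genes tested. From 70 to 100 Mb of chromosome 9, 26 of 109 genes were higher (23.9%) and 2 lower. Library medians there were -0.15, -0.11 and -0.10 in the controls and 0.12, 0.16 and 0.15 in sgUFM1, and the receptors S1PR3 and TGFBR1 lie in it. From 70 to 110 Mb of chromosome 11, where MMP1 and MMP3 lie, 26 of 177 genes were lower (14.7%) and 1 higher. From 10 to 20 Mb of chromosome 21, 10 of 17 genes were lower (58.8%), with SAMSN1 and NRIP1 among them. From 60 to 80 Mb of chromosome 15 the controls differed among themselves, with medians of -0.30, 0.14 and -0.29 in controls 1 to 3 and 0.08, 0.08 and 0.13 in sgUFM1. The other 6 libraries ranged from -0.33 to 0.13 in this stretch. Control 2 stood with sgUFM1 there, and without it the number of genes called higher in that stretch went from 10 to 85 of 154.

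In 221 windows of 10 Mb with at least 20 expressed genes, the 3 sgUFM1 libraries lay outside the range of the 3 controls in 117, and outside that of all 9 other libraries in 64. The difference of the group means was at least 0.2 log2 units in 14 windows upwards and 8 downwards. The largest upwards was 0.35, from 0 to 10 Mb of chromosome 9, with 7 of 29 genes tested higher (24.1%). The other 6 libraries ranged from -0.20 to 0.22 there, across the sgUFM1 medians. The largest downwards was -0.30, from 90 to 100 Mb of chromosome 8, with 11 of 45 genes tested lower (24.4%). The stretches described above were drawn after the windows were seen, so their counts are descriptions. DNA copy number was not measured, and whether it differs between the cells of the groups was not tested.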

How the data were processed

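RNA of 12 libraries was sequenced, and 6 of them are compared here, 3 per group by title. The authors deposited read counts per gene and FPKM values, made with fastp 0.20.1, STAR 2.7.7a and featureCounts 2.0.0 on GRCh38, per the submitters' processing notes. The sources used here state neither their settings nor the use of strand. Each count column was matched to the FPKM column proportional to it over 11031 genes: 6 had the same name and 6 were exchanged. Replicates differed by a chi-square of 3.73 to 34.88 per gene, above sampling noise.

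Of 58735 genes, 58676 had a GC content, from GENCODE 29 transcripts, and 15035 passed filterByExpr. Offsets per library came from a lowess trend (span 0.3) of log2 CPM on GC content and then on gene length. Genes were tested in edgeR 4.0.16 (R 4.3.3) with TMM scaling and the quasi-likelihood test, with Benjamini-Hochberg adjustment at 0.05. The procedure was tested on simulated data. With 3 libraries a group, the depth of 15342793 to 17026646 counts limits calls at low counts. Intervals were not computed.

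Named genes are UFM1 and UFL1, the 15 called protein-coding genes with the most positive and the 15 with the most negative log2 fold change, all of at least 5 CPM in 1 group, the 10 smallest p in each direction among those of at least 50 CPM, in each list at most 6 members, taken by p, the 5 most abundant genes called only with or only without the correction, and the 5 highest and 5 lowest called long noncoding genes. Other genes were chosen after their values were seen. There were 35 gene lists, of whose 1026 symbols 1 was not found. The members and lists were chosen with earlier results of these data known. Alternatives were other offsets, scalings and filters, DESeq2 1.42.0, limma 3.58.1 on log2 FPKM, all 12 libraries in 1 model, other libraries as controls, a replicate block and each library left out. A few genes that this rule names are not reported here.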

Additional observations from a re-analysis of the deposited data

How the results depend on the processing

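The numbers of genes higher (646) and genes lower (595), 111 and 120 of them by at least 2-fold, moved with single libraries, the controls used and the test. Leaving out each replicate in turn gave 134 to 2185 higher, 104 to 1960 lower, 42 to 292 higher by at least 2-fold and 46 to 301 lower by at least 2-fold, the highest without control 2 and the lowest without an sgUFM1 library. With no offsets as well, chosen after seeing the data, controls 1 to 3 and sgUFM1 1 to 3 in turn gave 369, 2195, 540, 165, 229 and 287 genes higher and 281, 2001, 357, 110, 146 and 176 genes lower, with up to 453 higher and 73 to 340 lower by at least 2-fold. Fits with 1 library fewer have fewer samples. No offsets gave 203 genes higher by at least 2-fold. No filter on low counts gave 984 higher, 180 of them by at least 2-fold, and 210 lower by at least 2-fold. By limma on log2(FPKM + 0.5) the counts were 316, 239, 50 and 43, with a pseudocount of 0.1 they were 334, 262, 60 and 53, with 1 they were 303, 217, 34 and 32, and with no filter 35, 25, 10 and 11. One model of 12 libraries gave 994 lower, and DESeq2 837 higher and 808 lower.

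Replicate numbers did not pair the samples: residuals of equal numbers correlated by 0.08, -0.04 and 0.02. With a replicate block, genes higher were 702 and genes lower 559 with offsets, and genes higher 1093, 208 of them by at least 2-fold, without.

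In place of the controls, set 1 (sgUFL1 in the count table) gave 75 genes lower by at least 2-fold, and set 2 (sgCtrl_to_sgUFM1 there) gave genes higher 2426, genes lower 2514, and 190 and 257 by at least 2-fold. These comparisons share the sgUFM1 libraries. Turns of sign are listed only where either fit called the gene. Among the 233 genes named by the rule, signs turned in this sense against set 1 for TXNDC5 (-0.16), RPL26 (-0.30) and MT-ND4L (0.10). Against set 2 they turned for CCDC144NL-AS1 (2.79), TXNDC5 (-0.22), BIRC3 (0.05), CA12 (-0.32), NDUFB9 (-0.16), OST4 (-0.01), RPL26 (-0.63), MT-ND4L (0.12), TIMP3 (-0.12), IFITM1 (-0.07), CLDN7 (-0.13), RPL37A (-0.51), RPL14 (-0.28), GDF15 (0.75), RPL37 (-0.64) and EGFR (0.26). CYC1 was at 0.04 without offsets, with or without a replicate block, and without offsets and control 1, control 2, sgUFM1 1, 2 or 3 at 0.03, 0.12, 0.01, 0.06 and 0.05. Without offsets and control 2, NDUFS8 was at 0.01 and LSS at 0.03. The cause of these shifts was not tested. Of 233 named genes, 102 (limma with no filter) to 233 (RLE scaling) were unchanged over the alternatives. Unchanged means the same side of the threshold, and the same direction where either fit called the gene. With 1 library left out 145 to 183 were unchanged, against set 2 168, where 16 turned, and by DESeq2 194. Not every alternative tested all 233 genes. Genes under the filter on low counts were not tested.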
